A study of Mus musculus with 4 samples.

Results

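The genes described here encode the 4 invariant signalling chains of the T cell receptor: Cd3g, Cd3d and Cd3e, which lie side by side on mouse chromosome 9, and Cd247, the CD3ζ gene, on chromosome 1. H3K27ac, a histone mark of active promoters and enhancers, was mapped by ChIP-seq in mouse Th17 cells, a class of IL-17-secreting helper T cells. Peaks were taken where they overlapped one of the 4 genes or the 50000 bp on either side by at least 1 bp, on the build GRCm38. This gave 43 of the 56285 peaks in the list, 10 around the chromosome 9 genes and 33 around Cd247.

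The cells were C57BL/6 CD4+ T cells, naive at the start and cultured towards Th17. They had been treated for 72 h with 0.25 μg/mL anti-CD3ε, an antibody to the product of Cd3e, 1 μg/mL anti-CD28, 0.1 ng/mL TGF-β and 20 ng/mL IL-6, per the treatment label. For TGF-β the culture protocol states a range of doses. There were 2 H3K27ac libraries and 2 input DNA libraries, 1 of each from each of 2 biological replicates, and every library came from this 1 culture condition. The deposited list gives a position for each peak and no height, score or value per library, so no value below has a replicate error, the depth is unknown and nothing was tested across samples. What can be measured is where the peaks lie, how wide they are and how many bases they cover, here called the acetylated length. A percentile gives the place of a gene among all 21627 protein-coding genes of chromosomes X and 1 to 19, as a description.

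The T cell receptor recognises antigen with its α and β chains, which have almost no cytoplasmic part of their own. Signals are passed on by the CD3 chains, assembled as a CD3γ-CD3ε pair, a CD3δ-CD3ε pair and a CD3ζ homodimer. Their tails hold immunoreceptor tyrosine-based activation motifs (ITAMs), which are phosphorylated by the kinase Lck and then bind the kinase Zap70. CD3ζ carries more of these motifs than the other chains, and its supply limits how many complete receptors reach the surface. The 3 chromosome 9 genes are thought to stem from duplications of 1 ancestor, and enhancers downstream of the δ and ε genes have been described in T cells.

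The 4 promoters are shown because a peak lay over every one of them. The 250 bases before the start of each gene in RefSeq (GRCm38.p6) are given 5′ to 3′ along the gene. Capitals mark matches, on either strand, to motifs of 7 kinds. ETS factors were searched as CAGGAA and, separately, CCGGAA. E boxes, which E proteins bind, were searched as CACCTG and, separately, CAGCTG. For RUNX factors the letters were TGTGGT and for GATA factors AGATAA. The TATA box was searched as TATAAA, the GC box as GGGCGG and AP-1 as TGACTCA. No match overlapped another. Positions are chr9:44980432-44980681 on the minus strand for Cd3g, chr9:44981536-44981785 on the plus strand for Cd3d, chr9:45009612-45009861 on the minus strand for Cd3e and chr1:165788431-165788680 on the plus strand for Cd247.
Cd3g: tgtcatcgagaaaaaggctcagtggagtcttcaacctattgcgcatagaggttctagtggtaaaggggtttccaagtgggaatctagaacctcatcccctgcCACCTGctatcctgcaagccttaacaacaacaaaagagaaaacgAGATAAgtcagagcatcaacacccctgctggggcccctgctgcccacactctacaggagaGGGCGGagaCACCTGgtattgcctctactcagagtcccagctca
Cd3d: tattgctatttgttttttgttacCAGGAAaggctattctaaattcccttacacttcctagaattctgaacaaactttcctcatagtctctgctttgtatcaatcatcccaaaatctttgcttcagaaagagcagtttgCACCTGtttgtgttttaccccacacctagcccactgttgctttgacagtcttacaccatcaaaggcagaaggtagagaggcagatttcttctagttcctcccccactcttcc
Cd3e: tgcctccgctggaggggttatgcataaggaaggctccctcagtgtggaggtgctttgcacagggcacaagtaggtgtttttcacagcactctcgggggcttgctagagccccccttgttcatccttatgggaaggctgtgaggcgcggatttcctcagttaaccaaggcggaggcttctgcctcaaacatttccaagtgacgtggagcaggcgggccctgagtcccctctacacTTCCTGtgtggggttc
Cd247: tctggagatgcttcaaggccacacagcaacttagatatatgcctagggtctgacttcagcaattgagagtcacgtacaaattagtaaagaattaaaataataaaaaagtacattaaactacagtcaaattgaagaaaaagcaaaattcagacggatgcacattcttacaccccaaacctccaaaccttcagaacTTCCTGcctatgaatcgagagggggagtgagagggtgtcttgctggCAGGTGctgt

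A CACCTG E box, counting its reverse complement CAGGTG, was present in all 4 promoters when the 50 bases after the start were included, against 19.9% of 21044 promoters of protein-coding genes of the same 300 bases. In Cd3e this match lies 3 to 8 bases after the start and is therefore not in the sequence printed. Cd3g held 2 matches, the nearer at 35 to 30 bases before its start, and Cd247 held 1 at 10 to 5 bases before. CAGGAA was present in Cd3d, Cd3e and Cd247 and absent from Cd3g, against 28.7% of all promoters. The copy nearest to a start was that of Cd3e, 16 to 11 bases before it. Cd3g alone of the 4 held AGATAA (9.68% of all promoters), CAGCTG (15.7%) and GGGCGG (46.7%). Its CAGCTG lies 23 to 28 bases after the start and is likewise not in the sequence printed. Among promoters with a start peak the shares were 17.3% for CACCTG, 25.6% for CAGGAA, 5.75% for AGATAA, 14.0% for CAGCTG and 66.2% for GGGCGG. None of the 4 windows held the other ETS motif (18.9% of all promoters), the RUNX motif (14.8%), the TATA box (12.7%) or the AP-1 motif (4.69%). These are matches of letters, not measured binding sites.

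The 4 promoters held fewer CG dinucleotides, the sites of DNA methylation, than the median promoter, and all were acetylated end to end. The 300-base windows held 1 CG in Cd3d, 3 in Cd247, 4 in Cd3g and 8 in Cd3e, against a median of 13 over all promoters. Peaks covered 300 of 300 bases in each, whereas 41.5% of all promoters were covered whole. Among the 8522 promoters with at most 8 CG, a limit chosen after the members' counts were seen, 17.8% had a peak within 1000 bp of the start and 10.0% were covered whole. Among the 12522 promoters with more CG these shares were 79.4% and 62.9%. This comparison is by CG count alone. By the share of G and C bases Cd3e (56.7%) and Cd3g (54.0%) lay at percentiles 50.1 and 41.3 of all promoters, with Cd247 (43.7%) and Cd3d (42.3%) below them.

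All 4 genes had a peak within 1000 bp of the start, and in each it lay over the start base itself. Over all protein-coding genes 54.2% had a peak within 1000 bp of the start, where genes with no start in the promoter table used here were counted by either annotated end. Of the 17273 genes with a listed start, 55.0% had a peak within 1000 bp of it and 50.7% over it. Where the midpoint of the peak had to lie within 1000 bp of the start, Cd3e was the only member with one, against 49.7% of all protein-coding genes. A peak at the start was thus common, and the members are better described by its width. The peak over the start measured 18798 bp at Cd247, 10251 bp at Cd3d and Cd3g, which share it, and 4702 bp at Cd3e. The median over the 8752 genes with a peak over the start was 1886 bp (quartiles 1304 and 2725 bp). Among those genes Cd247 lay at percentile 99.8, Cd3d and Cd3g at 98.6 and Cd3e at 92.5.

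**Figure D1:**
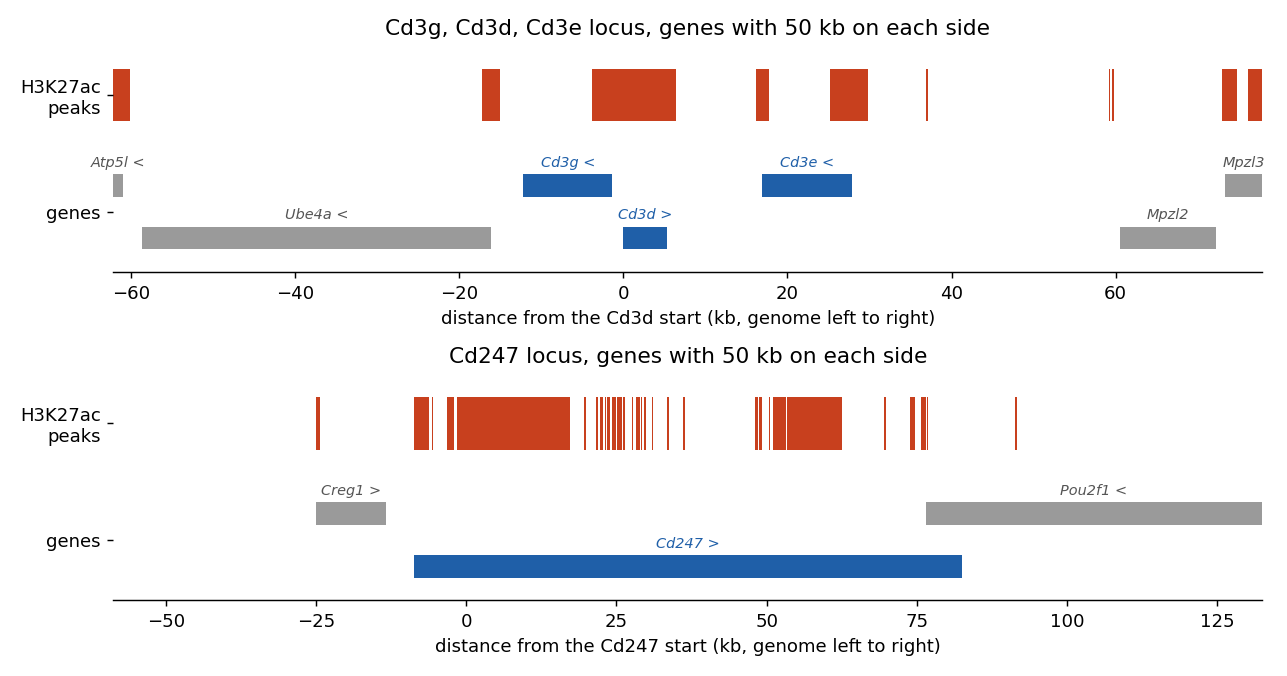
Maps of the Cd3g, Cd3d, Cd3e locus (top) and the Cd247 locus (bottom), each with 50 kb beyond the outer genes. Red blocks are H3K27ac peaks to scale, blue bars the CD3 genes and grey bars neighbouring protein-coding genes, both cut at the edge of the window; arrowheads give the direction of transcription where a start is listed, and the x axis is the distance in kb from the Cd3d or the Cd247 start. One peak of 10251 bp spans the Cd3g and Cd3d starts, whereas Cd247 holds 31 peaks along its length.

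Cd3g and Cd3d, which encode CD3γ and CD3δ, were joined by 1 peak. The genes are transcribed away from each other from starts 1355 bp apart, Cd3g (chromosome 9, 44969572 to 44980431) on the minus strand and Cd3d (chromosome 9, 44981769 to 44987052) on the plus strand. The peak ran from 44977965 to 44988215 with no break and was wider than 99.5% of all peaks, ties split. Peaks over the starts of more than 1 gene were a minority, 790 of the 8213 peaks over a start (9.62%). That share takes in every start peak, whatever the distance to the next gene start. The share among starts as close as these was not computed.

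The shared peak was not centred between the genes. It covered the whole of Cd3d, all 5284 bp, and went on for 1163 bp past its finish. Of Cd3g it covered the first 2467 bp, and the remaining 8393 bp towards the finish held no peak. Cd3d was among 167 protein-coding genes covered from end to end (0.772%). Among the 1910 genes within 25% of its length, 21 were (1.10%). The peak therefore reached 6429 bp downstream of the Cd3d start and 2466 bp downstream of the Cd3g start, against a median of 1080 bp over all genes with a peak over the start.

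Cd3e, which encodes CD3ε, the chain shared by both CD3 heterodimers, had a separate pair of peaks. Cd3e (chromosome 9, 44998735 to 45009663) is on the minus strand, with its start 27825 bp from that of Cd3d. Its start peak (45006954 to 45011655, 4702 bp) was nearly even about the start, with 2044 bp upstream and 2657 bp downstream. The other (44997942 to 44999484, 1543 bp) straddled the finish, with 750 bp inside the gene and 793 bp beyond it. Between them 7469 bp of the gene had no peak. Together the pair covered 3460 bp, 31.7% of the gene, at the 92.2nd percentile of covered share.

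The peak at the Cd3e finish lay 10127 bp from any listed gene start. Its width put it at percentile 76.3 of all peaks. It also faced Cd3d across the 11682 bp between the genes, so that the gap from the shared Cd3d and Cd3g peak was 9726 bp. The gene table holds no exons or UTRs, so whether a stretch of peak is exonic or intronic is not given here.

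**Figure D2:**
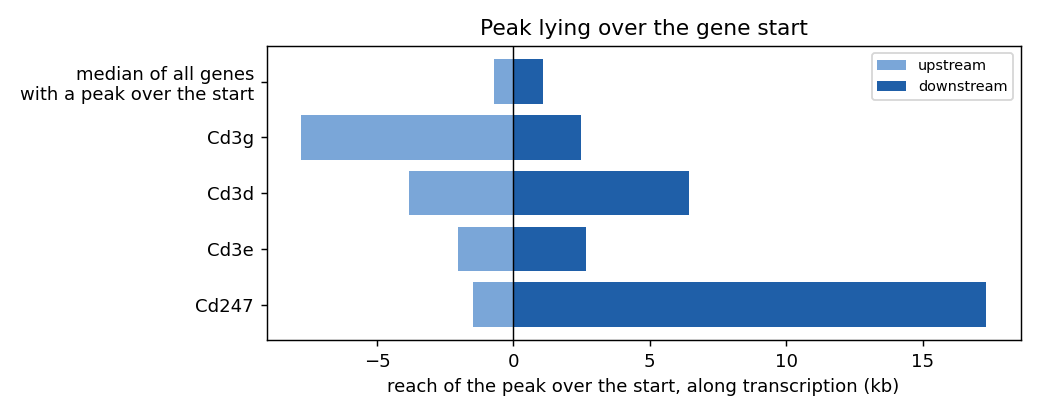
Reach of the peak lying over each gene start, in kb upstream (light bars, to the left) and downstream (dark bars, to the right) along transcription, with the medians of the 8752 genes that have such a peak in the top row. Each bar is 1 measured distance with no error, and Cd3g and Cd3d share 1 peak. Cd247 reaches 17329 bp downstream and 1468 bp upstream, while Cd3e is nearly even on both sides.

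Cd247 had the longest acetylated stretch of the 4 and the only one lying almost wholly inside its gene. Cd247 (chromosome 1, 165779952 to 165871153, plus strand) encodes CD3ζ and is 91202 bp long. Peaks covered 43163 bp of it, or 47.3%, in 31 peaks, and 939 bp of the 100 kb around it. By acetylated length inside the gene it lay at percentile 99.7 of all protein-coding genes. Among the 501 genes of 84104 to 98917 bp, itself included, the median was 1786 bp in 2 peaks, and 5 genes had more acetylated length than Cd247. In its flanks Cd247 was at percentile 32.9, below the middle of all genes.

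The widest peak of the 43 began 1468 bp before the Cd247 start and ended 17329 bp after it (165787213 to 165806010, 18798 bp). It was wider than 99.9% of all peaks, and its downstream reach was at percentile 99.8 of genes with a peak over the start, its upstream reach at 84.7. A second broad peak of 8904 bp (165842088 to 165850991, percentile 99.3 of peak width) began 53407 bp downstream of the start. It overlapped the noncoding RNA gene Gm32999, which lies within Cd247, and was within 1000 bp of a listed start of Gm32999. These 2 peaks held 27702 bp, or 62.8% of the acetylated length in the window, and the other 29 peaks in the gene held 15461 bp.

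The rest of Cd247 was marked by short peaks. Of the 31 peaks touching the gene 19 were under 500 bp and 5 were at least 1000 bp. Over the whole window 20 of 33 peaks (60.6%) were under 500 bp, against 45.6% of all peaks, and the median gap between neighbours was 482.5 bp, against 3595 bp over the list. With peaks at most 5000 bp apart joined, the gene fell into 3 blocks. Relative to the start, the first ran from -8646 to 36468 bp, with 20 peaks and 28759 acetylated bp, and was number 113 of 25951 such blocks by acetylated length. The next ran from 48095 to 62619 bp after the start with 7 peaks and 12449 bp (number 624), and the last from 69608 to 76926 bp with 4 peaks and 1955 bp. Between the first and the second block 11626 bp held no peak. The peak farthest from a listed start of a protein-coding gene, 71622 bp from the nearest, was in the last block (165862629 to 165863326, 698 bp). Starts of noncoding genes, such as Gm32999, were not counted in this distance.

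Cd247 also had a peak near its outermost annotated end. RefSeq's outer boundary lies 8729 bp before the start used for the promoter. A peak of 2417 bp (165780035 to 165782451) began 83 bp inside that boundary. At the other end, the last peak stopped 5546 bp short of the finish.

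**Figure D3:**
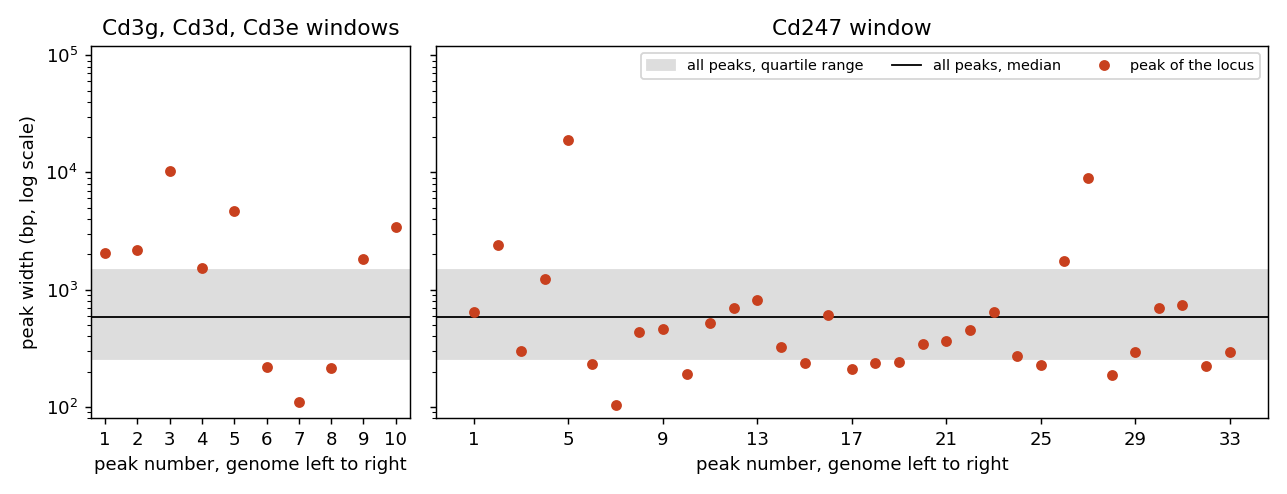
Width of each peak in the windows of Cd3g, Cd3d and Cd3e (left, 10 peaks) and of Cd247 (right, 33 peaks), on a log axis in bp, in genome order. The grey band and the black line are the quartile range and the median (579 bp) of all peaks. Peak 3 on the left is the shared Cd3g and Cd3d peak of 10251 bp, and peaks 5 and 27 on the right are the 18798 and 8904 bp peaks of Cd247, most of whose other peaks lie near or below the median.

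The 2 loci thus differed in how acetylation was laid out. The chromosome 9 windows together spanned 140092 bp and held 24820 acetylated bp (17.7%) in 10 peaks with a median width of 1954 bp. The Cd247 window spanned 191202 bp and held 44102 bp (23.1%) in 33 peaks with a median width of 365 bp. Peaks under 500 bp were 3 of 10 at chromosome 9 and 20 of 33 at Cd247. Both loci had 1 dominant peak, which made up 38.6% of summed peak width at chromosome 9 and 42.6% at Cd247. Running numbers in the peak names also skip: 2 of 12 numbers are not in the list over the chromosome 9 windows and 8 of 41 over Cd247, against 21.2% over the list. Whether joined or dropped peaks bear on the string of short ones in Cd247 was not tested.

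By acetylated length in the gene and 50000 bp on each side, the order was Cd247 with 44102 bp (percentile 99.1), Cd3e with 22752 bp (94.0), Cd3g with 20954 bp (92.7) and Cd3d with 18886 bp (90.7). The median protein-coding gene had 4586 bp (quartiles 490 and 10532.5 bp), and 77.5% of genes had some peak in this window. The Cd247 window was the longest, 191202 bp against 105284 to 110929 bp for the others. As a share of the window the genes were closer. Peaks covered 23.1% at Cd247 (percentile 97.1), 20.5% at Cd3e (96.0), 18.9% at Cd3g (94.9) and 17.9% at Cd3d (94.1). The 3 windows on chromosome 9 overlap and share most of their peaks, so their order is set by which neighbours' peaks each takes in, and there is no replicate spread to set against it. By share of the gene covered, the order was Cd3d (100%), Cd247 (47.3%), Cd3e (31.7%) and Cd3g (22.7%, percentile 88.5), against a median of 2.01%.

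Along transcription, the 4 genes parted beyond the start. The mean over all protein-coding starts was 16.6% coverage in the first 5 kb downstream and 4.93% from 5 to 20 kb. Cd3d and Cd247 were covered completely in the first 5 kb, Cd3e at 53.2% and Cd3g at 49.3%. From 5 to 20 kb Cd247 was covered at 83.7% (percentile 99.6 of 21044 starts) and Cd3d at 19.8%, a stretch that lies nearly all past the finish of Cd3d and takes in the peak at the finish of Cd3e. Cd3g had 14.5% there, from the peak at the Ube4a start, and Cd3e 10.3%, its own finish. From 20 to 50 kb Cd247 still had 23.0%, against a mean of 5.00%. Cd3e had 41.4%, most of it the shared peak of Cd3d and Cd3g, and Cd3g had none.

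**Figure D4:**
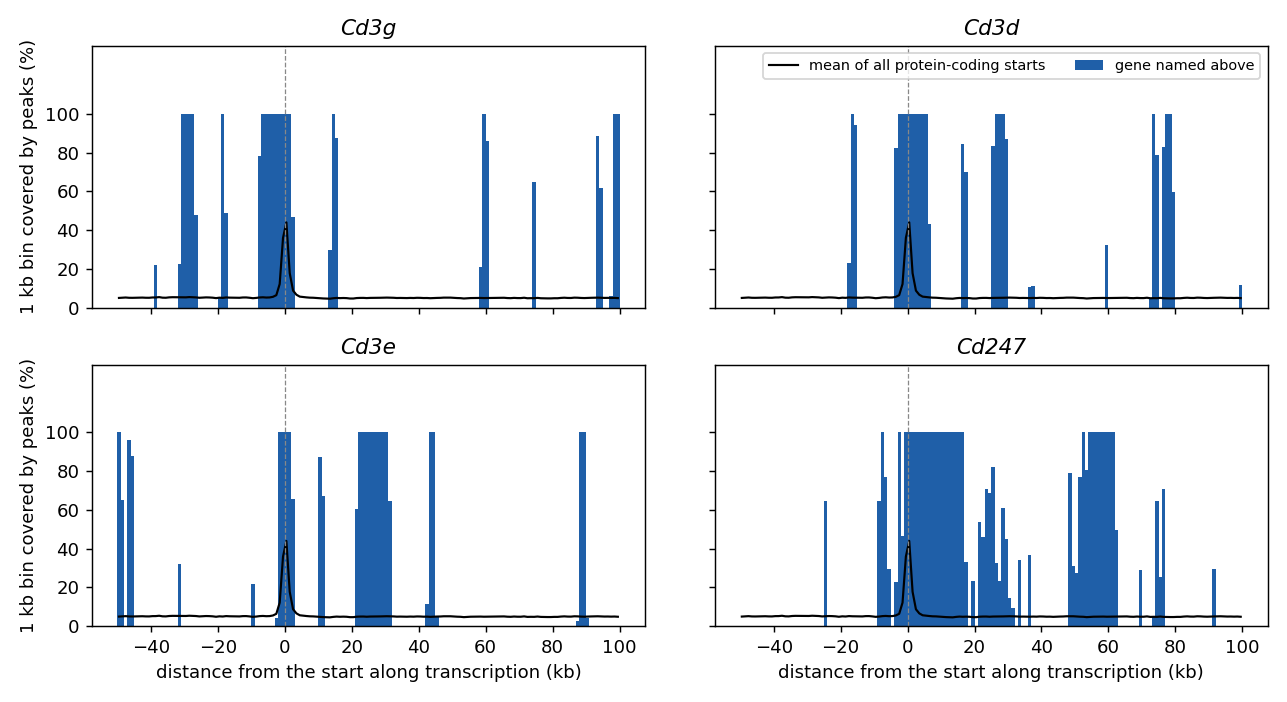
Share of each 1 kb bin covered by peaks (y axis, percent) from 50 kb before to 100 kb after the start, along transcription (x axis, kb), for the 4 CD3 genes (blue bars). The black line is the mean over 21044 starts of protein-coding genes, and the dashed line marks the start. The mean rises only near the start, whereas Cd247 is covered without a break over its first 17 bins.

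Neighbouring genes also contributed to the windows. On chromosome 9, Atp5l, an ATP synthase subunit gene, had a start peak of 2069 bp and Ube4a, a ubiquitin ligase gene, one of 2170 bp (44964558 to 44966727). Mpzl2 and Mpzl3, which encode adhesion proteins of the myelin protein zero family, have no start in the promoter table used here. A peak of 1839 bp (45054735 to 45056573) was within 1000 bp of an end of both genes, and a peak of 3424 bp lay inside Mpzl3. Between Cd3e and Mpzl2 there were 3 short peaks of 220, 109 and 214 bp. The farthest of the 10 from a listed protein-coding start was the last of these, 31773 bp away. That peak was nevertheless within 1000 bp of an annotated end of Mpzl2, which has no listed start. Near Cd247, Creg1 had a start peak of 645 bp. Pou2f1, which encodes the octamer-binding factor Oct-1, overlaps the finish of Cd247 and has its start beyond the window. Within the window, a single peak of 294 bp lay in the part of Pou2f1 outside Cd247. Over its whole length Pou2f1 held 6 peaks and 4168 acetylated bp, and its start peak measured 2163 bp.

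Peaks with gaps of up to 12.5 kb were also stitched, as is done to find clustered enhancers. All peaks over Cd247 fell into 1 cluster, as did all those over Cd3g, Cd3d or Cd3e, whereas 2 of the 33 peaks around Cd247 and 5 of the 10 on chromosome 9 lay outside these clusters. The Cd247 cluster (165780035 to 165865607) held 31 peaks and 43163 acetylated bp and ranked 80 of 18748 clusters. The chromosome 9 cluster (44964558 to 45018897) ran from the Ube4a start to beyond Cd3e, with 5 peaks and 18886 bp, and ranked 484. The latter held together through gaps of 11237 and 9726 bp. With stitching to 5000 bp every peak over Cd3g, Cd3d or Cd3e stood alone, and the longest was the shared peak of 10251 bp. The Cd247 cluster then gave 28759 bp.

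Most genes that act with CD3 also had a peak reaching to within 1000 bp of the start. A list of 45 genes of proximal T cell receptor signalling held kinases, adaptors, coreceptors, phosphatases and ubiquitin regulators. Of these, 43 (95.6%, against 54.2% of all protein-coding genes) had a peak within 1000 bp of the start or, for those without a listed start, of an annotated end. Of the 33 with a listed start 31 did. By peak midpoint the count was 23 of 45, against 49.7% of all protein-coding genes, so under that rule the share in the list was near the background. The exceptions were Cd8a, a CD8 coreceptor chain gene with no peak in its window, and Grap2, an adaptor gene with 43854 acetylated bp but none at its start. The median acetylated length in gene and flanks was 22947 bp, against 4586 bp over all genes. Among the longest were those at Prkcq, the kinase PKCθ (108509 bp), Cd6 (84657 bp) and Cd5 (73782 bp), scavenger receptor family genes whose windows overlap, and Sla, the adaptor SLAP (81391 bp). Set among the 45 by this length, Cd247 would rank 11, Cd3e 24, Cd3g 27 and Cd3d 28. By acetylated length inside the gene alone Cd247 would rank 6, whereas Cd3d (37), Cd3e (39) and Cd3g (40) would stand near the bottom. By share of the gene covered Cd3d would be level with the top of the list, where Sit1, Cd28 and Cd2 were also covered whole.

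Adaptors that do for other immune receptors what CD3 does for the T cell receptor were set beside the 4 CD3 genes. In gene and 50000 bp flanks these adaptors had shorter acetylated lengths than any CD3 gene. Other flanks were not compared. The windows of Cd3g, Cd3d and Cd3e overlap, so those genes are not separate cases. Of Fcer1g (the FcRγ chain), Tyrobp (DAP12), Hcst (DAP10, whose tail has another motif than an ITAM), Cd79a and Cd79b (the B cell receptor chains), only Hcst had a peak over a listed start, 6506 bp wide. Hcst was covered over 2104 bp, 98.2% of its length. Tyrobp, its neighbour, has no listed start and had this peak within 1000 bp of an annotated end, with no base of the gene covered. Fcer1g and Cd79b had 0 acetylated bp inside the gene, and Cd79a had 687 bp. In gene and flanks they had 12046 bp (Fcer1g, percentile 79.3), 10491 bp (Tyrobp and Hcst alike, 74.9), 14881 bp (Cd79a, 85.0) and 3080 bp (Cd79b, 40.7). All but Cd79b thus lay above the median protein-coding gene. Most of these lengths lay outside the genes. The same held for Cd3g (18487 of 20954 bp in the flanks), Cd3d (13602 of 18886 bp) and Cd3e (19292 of 22752 bp). It did not hold for Cd247 (939 of 44102 bp). No difference from the CD3 genes was tested.

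**Figure D5:**
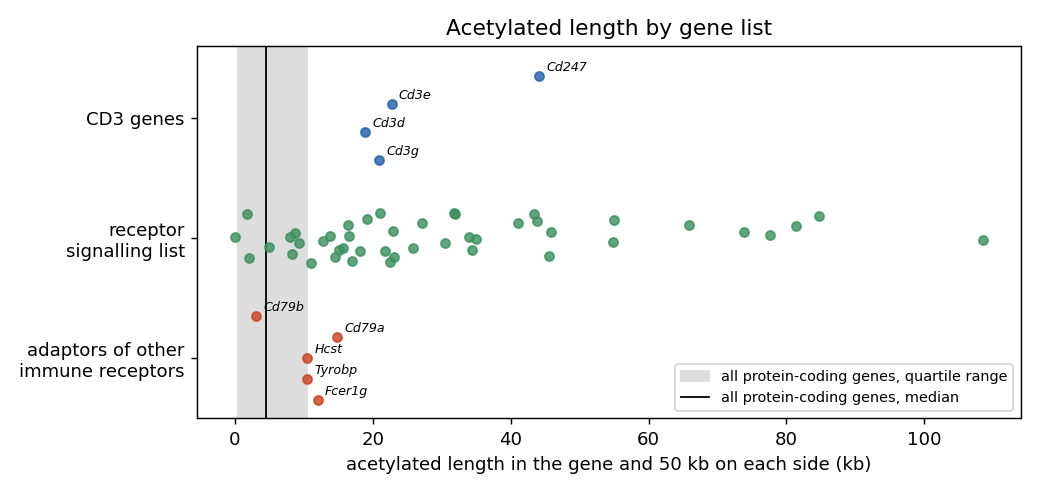
Acetylated length in the gene and 50 kb on each side (x axis, kb), with 1 point per gene, for the 4 CD3 genes, the 45 genes of receptor signalling and the 5 adaptors of other immune receptors; vertical position within a row has no meaning. The grey band and the line are the quartile range and the median (4586 bp) of all protein-coding genes. Cd3g, Cd3d and Cd3e sit between 18886 and 22752 bp near the middle of the signalling genes, Cd247 sits at 44102 bp, and the adaptors sit between 3080 and 14881 bp.

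The label of the cells was checked against markers, against a background of 54.2% of all protein-coding genes with a peak at a start or end. Of the T cell markers Cd4 and Lck, Cd4 had 8618 acetylated bp in the gene, with a peak at an annotated end, and Lck had 14415 bp and a start peak. The B cell markers Cd79a, Cd79b and Ms4a1 had no peak at a start or end. Among the myeloid markers 1 of 5 had such a peak and among the NK markers 1 of 3, in both cases Tyrobp beside Hcst. Inside the gene Itgam had 1055 acetylated bp and Csf1r 156 bp, whereas Tyrobp, Fcer1g, Lyz2, Klrb1c and Ncr1 had 0. Of the CD8 pair Cd8b1 had a peak at a start or end, with 599 bp in the gene. For γδ T cells Sox13 had no peak at its start and 620 bp in the gene. The other 2 markers were not among the protein-coding genes used. With so few markers a list, these counts are a description and were not tested against that background. The list holds no levels, so they cannot give shares of other cells.

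The genes most like each member were sought over the whole list, by the shares of gene body and of 50000 bp flanks covered, among genes within 25% of its length and over 200000 bp away. Nearest to Cd3d were Tlcd1, Tnfrsf25 and Spry1, all covered over 100% of the gene and 13.9 to 14.9% of the flanks (Cd3d 13.6%). Nearest to Cd3g were Sipa1, Crtc2 and Cib3, with 21.1 to 23.7% of the gene covered. Nearest to Cd3e were Gem, Tap1 and Cep19, with 30.7 to 32.7%. Cd247 had the most distant matches, Mfhas1 (50.9% of the gene and 4.39% of the flanks), Fam53b (43.4% and 6.62%) and Grap2 (42.8% and 9.54%). Their distances from Cd247 were 4.97 to 9.74 percentage points, against 0.342 to 2.88 for the nearest of the other 3 genes. None had flanks as bare as the 0.939% of Cd247.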

How the data were processed

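The authors' deposited list gives peak positions only, as start and end in bp. The submitters' processing notes name MACS2 2.2.6, SAMtools 1.9, deepTools and Bowtie2 2.3.4.1, with the build mm10 (GRCm38). Peaks were called with MACS against each replicate's input, per the series' design text. For thresholds, filters and pooling of replicates the entry is: not given in the sources used here. Starts were read as counted from 0, since the narrowest peaks are then exactly 100 bp, and printed counted from 1. Genes and promoters came from RefSeq tables of GRCm38.p6: 17273 of 21627 protein-coding genes and all 4 members had a listed start, and the other 4354 were judged by either annotated end. Of 2761 genes with several starts, any start counted.

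The CD3 genes and lists were chosen with earlier results of these data known. No test was run, since the list holds no replicate values. Named were the 4 members, the protein-coding genes in their windows and 5 adaptors. Also named were the 5 signalling genes with the longest acetylated length, those with no start peak and 3 genes nearest in coverage to each member. Of the peaks, those over Cd3g, Cd3d or Cd3e, the 3 widest of each locus and the farthest from a listed protein-coding start were named. The other peaks over Cd247 were not listed singly and are described by counts, widths and blocks. Sit1, Cd28, Cd2 and the marker genes were named besides. A gene of the signalling list and a B cell marker are not reported here by name, and counts over the signalling list include all its genes. Alternatives were peaks of at least 500 or 1000 bp, merging at most 1000 bp apart, peak midpoints, flanks of 5000 and 20000 bp, start windows of 500 and 2500 bp and stitching to 5000 bp. A count of ITAMs in the proteins was planned and not run, as no protein table was used here. Interval code was checked on simulated data. Software was matplotlib 3.10.9, scipy 1.17.1, pandas 2.3.3 and numpy 2.4.6 under Python 3.11.15.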

Additional observations from a re-analysis of the deposited data

How the results depend on the processing

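Acetylated length over the 4 windows, 68922 bp, stayed within 1.5 times under all 5 alternatives (57380 to 75087 bp), and the chromosome 9 cluster did under the width limits. The count of 43 peaks fell to 20 with peaks of at least 500 bp, to 12 with at least 1000 bp and to 23 with merging. By peak midpoint 1 of 4 CD3 genes and 23 of 45 signalling genes kept a start peak, against 49.7% of all genes, so the excess over all genes was gone under this rule; a wide peak can span a start and be centred elsewhere. Other windows and width limits left 4 of 4 and 41 to 43, against 43.9% to 56.0% of all genes. Stitching to 5000 bp gave 10251 bp at chromosome 9 and 28759 bp at Cd247. The Cd247 cluster also broke with peaks of at least 500 bp (25080 bp) and 1000 bp (22442 bp), as fewer short peaks bridge the gaps. The median percentile of the 4 genes, 93.4, became 94.2 and 95.4 with these limits, 92.1 with merging, and 94.8 and 94.7 with flanks of 5000 and 20000 bp. With 5000 bp flanks Cd3e (6245 bp) fell behind Cd3d (10251 bp) and Cd3g (9623 bp). No paired analysis was possible because the list holds no values per replicate. For the same reason no replicate could be left out, and peak heights and depth are not known.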
